A study of Mus musculus with 15 samples.

Results

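The Ifi200 genes form a cluster on distal mouse chromosome 1 and encode a family of interferon-induced proteins, most of which can bind DNA. The genes were chosen by name, as 10 listed family members looked up in the gene name column of the deposited tables, and 9 of the 10 were found among 55536 genes: Ifi202b, Ifi203, Ifi204, Ifi205, Ifi207, Ifi208, Ifi209, Mndal and Aim2. No gene is named Mnda in the tables, and RefSeq lists that name as an older symbol of Ifi211, which is described here beside the members. On-off values within a group, led by those of Ifi202b, were what drew attention to the family, so these values are given as a description with no test. The other 8 members were compared between groups.

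Skeletal muscle RNA of mice labelled male and aged 2 months was sequenced as 15 samples, with 5 in each of 3 groups. The controls are labelled wild type. The second group is labelled PdgfrB Knock Out and the third PdgfrB D489V, a constitutively active form of the receptor, each described as specific to myogenin, a gene of differentiating muscle cells. Pdgfrb encodes a receptor for platelet-derived growth factor. The labels give no strain, litter or named muscle, and they do not say whether the controls carried a Cre transgene. They do not state in words that each sample is a separate animal, so the p-values measure only the spread between these samples.

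Values are read counts that the authors normalized and rounded, here called normalized counts, and their sum per sample ran from 29815559 to 36489777. Sums of 7 skeletal muscle genes such as Acta1 and Ckm ran from 4939867 to 7037289 and thus showed muscle RNA in every sample. Pdgfrb itself ranged from 1673 to 1848 normalized counts among controls, from 958 to 1628 among knockout samples and from 820 to 1062 among D489V samples. Every sample of both mutant groups thus lay below every control. The labels do not give the deleted part of the gene, and other cells of muscle are known to express it, so this level does not check the labels. Xist, an RNA of female cells, stood at 3165 in knockout replicate 3, although its label says male, while the remaining samples reached at most 101. Members that passed a test are therefore given without this sample too. Control replicate 5 and knockout replicates 3, 4 and 5 stood apart in lymphoid markers, with 8 of 8 B cell genes and 8 of 8 T cell genes above every one of the other 11 samples. These samples were set apart by the markers themselves, so both counts follow largely from that choice. The share of all genes that separate the same samples was not counted.

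Most family members carry a DNA-binding HIN domain, and most carry a pyrin domain through which they join other proteins. Aim2 senses double-stranded DNA in the cytosol and assembles an inflammasome with Pycard and Casp1. The Ifi202b protein lacks the pyrin domain and is known as an inhibitor of Aim2, while Ifi204, a mouse relative of human IFI16, takes part in signalling through the adaptor encoded by Tmem173. The number of gene copies and their expression are known to differ between inbred mouse strains, and Ifi202b is a well-known case of such a difference. The family is known mainly from immune cells, and skeletal muscle holds such cells as a small part of its mass.

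The genes lay within 681 kb of chromosome 1 in GENCODE release M21 on GRCm38, from 173350879 at the start of Aim2 to 174031810 at the end of Ifi205. All 9 are annotated as protein-coding. Aim2, Ifi208 and Ifi209 are on the plus strand and Ifi202b, Ifi203, Ifi204, Ifi205, Ifi207 and Mndal on the minus strand. Beside the members, 5 more Ifi200 genes were found by name, namely Ifi206, Ifi211, Ifi213, Ifi214 and the pseudogene Ifi203-ps. Ifi202b spans 173962568 to 173982744 and lies between Ifi203, at 173920407 to 173942672, and Ifi205, at 174011998 to 174031810.

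Promoter sequences were read for 12 of these 14 genes from RefSeq on GRCm38.p6, and 8 of the 9 members had an entry. The 250 bases before the start were searched on both strands for the interferon-stimulated response element, spelled GAAA, 2 bases of any kind and GAAA, which occurs in 2.98% of 32851 promoters of the same length. It was found in 9 of the 12 genes and in 5 of the 8 members, namely Ifi203, Ifi205, Ifi207, Ifi208 and Mndal. The 12 genes have 14 windows and a gene was counted if any window held a match, while the 2.98% counts single windows. Several windows are near copies, such as Ifi208 and Ifi213 with 87.9% identical alignment columns. The matches are therefore not separate occurrences. The windows of 6 members are shown and capitals mark each match. Ifi202b, Ifi205, Mndal, Ifi208 and Ifi209 are shown because the results turn on them, and Ifi203, which varied little, because its window has 89.3% identical columns with that of Mndal in a global alignment. Each is written 5′ to 3′ on the gene's strand.
Ifi202b, chr1:173982845-173983094, minus strand: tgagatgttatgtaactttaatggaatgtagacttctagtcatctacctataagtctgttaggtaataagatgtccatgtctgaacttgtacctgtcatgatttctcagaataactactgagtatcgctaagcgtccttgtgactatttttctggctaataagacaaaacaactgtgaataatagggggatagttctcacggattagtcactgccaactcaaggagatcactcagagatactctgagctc
Ifi205, chr1:174031756-174032005, minus strand: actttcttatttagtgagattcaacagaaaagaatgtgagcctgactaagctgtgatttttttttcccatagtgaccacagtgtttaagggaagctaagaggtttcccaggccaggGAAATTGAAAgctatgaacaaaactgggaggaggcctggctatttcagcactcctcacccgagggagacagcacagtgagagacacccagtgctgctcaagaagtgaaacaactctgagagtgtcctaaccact
Mndal, chr1:173880188-173880437, minus strand: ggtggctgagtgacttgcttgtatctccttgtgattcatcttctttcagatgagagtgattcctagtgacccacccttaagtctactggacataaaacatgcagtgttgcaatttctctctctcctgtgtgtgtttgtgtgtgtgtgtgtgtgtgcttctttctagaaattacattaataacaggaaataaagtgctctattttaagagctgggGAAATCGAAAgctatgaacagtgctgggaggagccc
Ifi203, chr1:173942493-173942742, minus strand: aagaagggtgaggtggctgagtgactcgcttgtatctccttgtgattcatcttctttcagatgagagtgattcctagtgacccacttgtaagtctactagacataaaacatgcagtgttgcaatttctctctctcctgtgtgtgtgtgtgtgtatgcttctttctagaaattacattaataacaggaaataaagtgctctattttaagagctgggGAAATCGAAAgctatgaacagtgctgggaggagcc
Ifi208, chr1:173673415-173673664, plus strand: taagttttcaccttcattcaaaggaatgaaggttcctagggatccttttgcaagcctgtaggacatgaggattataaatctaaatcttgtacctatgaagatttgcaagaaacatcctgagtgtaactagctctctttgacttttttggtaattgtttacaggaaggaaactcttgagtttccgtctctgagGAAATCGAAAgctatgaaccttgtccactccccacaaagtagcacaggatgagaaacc
Ifi209, chr1:173630609-173630858, plus strand: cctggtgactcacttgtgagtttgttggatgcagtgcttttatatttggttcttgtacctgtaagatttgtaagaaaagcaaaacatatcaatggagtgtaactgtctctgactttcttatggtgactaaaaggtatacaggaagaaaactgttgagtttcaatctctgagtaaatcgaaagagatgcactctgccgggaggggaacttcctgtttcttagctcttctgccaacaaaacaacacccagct
Mndal, Ifi203 and Ifi208 held a match on the gene's own strand 36, 35 and 58 bases before the start. In Ifi205 the match lay 134 bases before it. RefSeq gives Mndal and Ifi203 a further start each, where the Mndal window held a match on the opposite strand and the Ifi203 window held none. The Ifi202b window held none, but it did hold 1 match to the gamma-activated site TTCNNNGAA, which occurs in 7.02% of all promoters and was found in no other window of these genes. The Ifi209 window had no response element match, although 94.4% of its alignment columns with the Ifi214 window, which has 1, were identical. Such matches describe these letters in the reference sequence only.

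Near-identical copies limit how far counts can be told apart within the family. Of all 75-base windows in the annotated transcripts, none of those of Ifi202b or Aim2 occurred in a transcript of another gene. The share was 5.71% for Ifi203, 11.1% for Mndal, 11.8% for Ifi208, 13.2% for Ifi204, 16.6% for Ifi205 and 23.1% for Ifi209. All those of Ifi209 were shared with Ifi214, and all those of Ifi205 with Ifi211. In Ifi211 the share was 63.6%, so its counts are the least certain of the family. The exons of Mndal and Ifi203 also overlap by 37 bases on the same strand. How the authors assigned reads that fit several genes is not given in the sources used here, and values of members with shared windows carry this uncertainty.

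**Figure D1:**
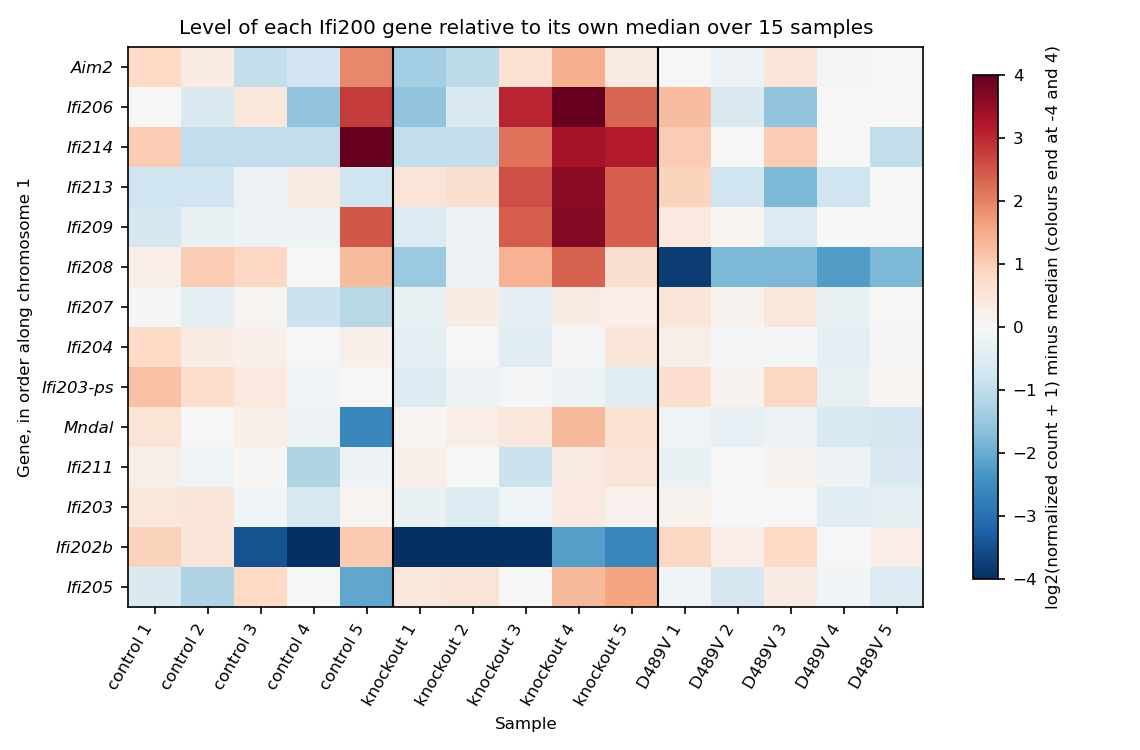
Each square is the log2(normalized count + 1) of a gene (rows, in order along chromosome 1) in a sample (columns, by group), minus the gene's own median over the 15 samples; colours end at -4 and 4. Ifi202b is blue in controls 3 and 4 and in the 5 knockout samples, while Ifi206, Ifi214 and Ifi209 are red in control 5 and knockouts 3 to 5.

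Ifi202b took high and near-zero values within the control group. Its normalized counts were 253, 186 and 278 in controls 1, 2 and 5, against 11 and 0 in controls 3 and 4. In knockout samples 1 to 5 they were 1, 0, 4, 28 and 21. In D489V samples 1 to 5 they were 238, 160, 233, 133 and 161. Controls 3 and 4 thus lay within the range of the knockout samples, control 2 lay within the range of the D489V samples, and controls 1 and 5 lay above it. No control lay between 11 and 186. The group means were 146 ± 132 (SD, n = 5) in controls, 10.8 ± 12.8 (SD, n = 5) in knockout and 185 ± 47.5 (SD, n = 5) in D489V. No control lay near the control mean, and the wild-type range of 0 to 278 held the ranges of both mutant groups.

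A gene was called on-off within a group when its highest sample held 50 or more normalized counts and its lowest at most 10% of that. In controls 3.19% of the 13089 genes with such a highest value were on-off, and 1 of the 8 members with such a value was, Ifi202b. In knockout samples the share was 2.85% of all genes, with 2 of 8 members, Ifi208 and Ifi209. In D489V samples it was 0.587% of all genes and 0 of 7 members. With a limit of 20% in place of 10%, the control count was 5 of the 8, adding Ifi205, Ifi209, Mndal and Aim2, beside 5.24% of all genes. All of these additions rested on control replicate 5. In controls 1 to 4 Ifi205 held 32 to 131, Ifi209 9 to 13, Mndal 233 to 400 and Aim2 20 to 70. At the 20% limit the knockout count was 3 of 8 beside 4.48%, and the D489V count was 0 of 7 beside 1.57%. The shares over all genes rested in part on single samples: that of controls was 1.09% without replicate 5, that of knockout samples 1.84% without replicate 4 and that of D489V samples 0.223% without replicate 3. The knockout count rested on replicate 4, without which it was 0, and it was 1 without replicate 1. Just outside the limit in controls, the lowest sample of Ifi209 held 10.2% of the highest with Mndal next at 44 against 400. At the 10% limit the shares of members rest on at most 2 genes, and the shares at both limits are not read further.

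Control replicate 5 had a family profile of its own. It held the most Ifi202b of all samples, at 278, and the least Mndal of all samples, at 44. Mndal, a close relative of Ifi203, held 400, 271, 316 and 233 in controls 1 to 4. In the same sample Ifi205 was at its lowest in the series, at 17, against 50, 32, 131 and 75 in controls 1 to 4. Ifi207 was at its lowest too, at 71. Ifi213 held 3 in control 5 but 41, 84 and 36 in knockouts 3, 4 and 5, although those samples also stood apart in lymphoid markers. Ifi214 held 68 in control 5 and 8, 19 and 17 in these knockouts. The members therefore did not rise or fall as a block within control 5.

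**Figure D2:**
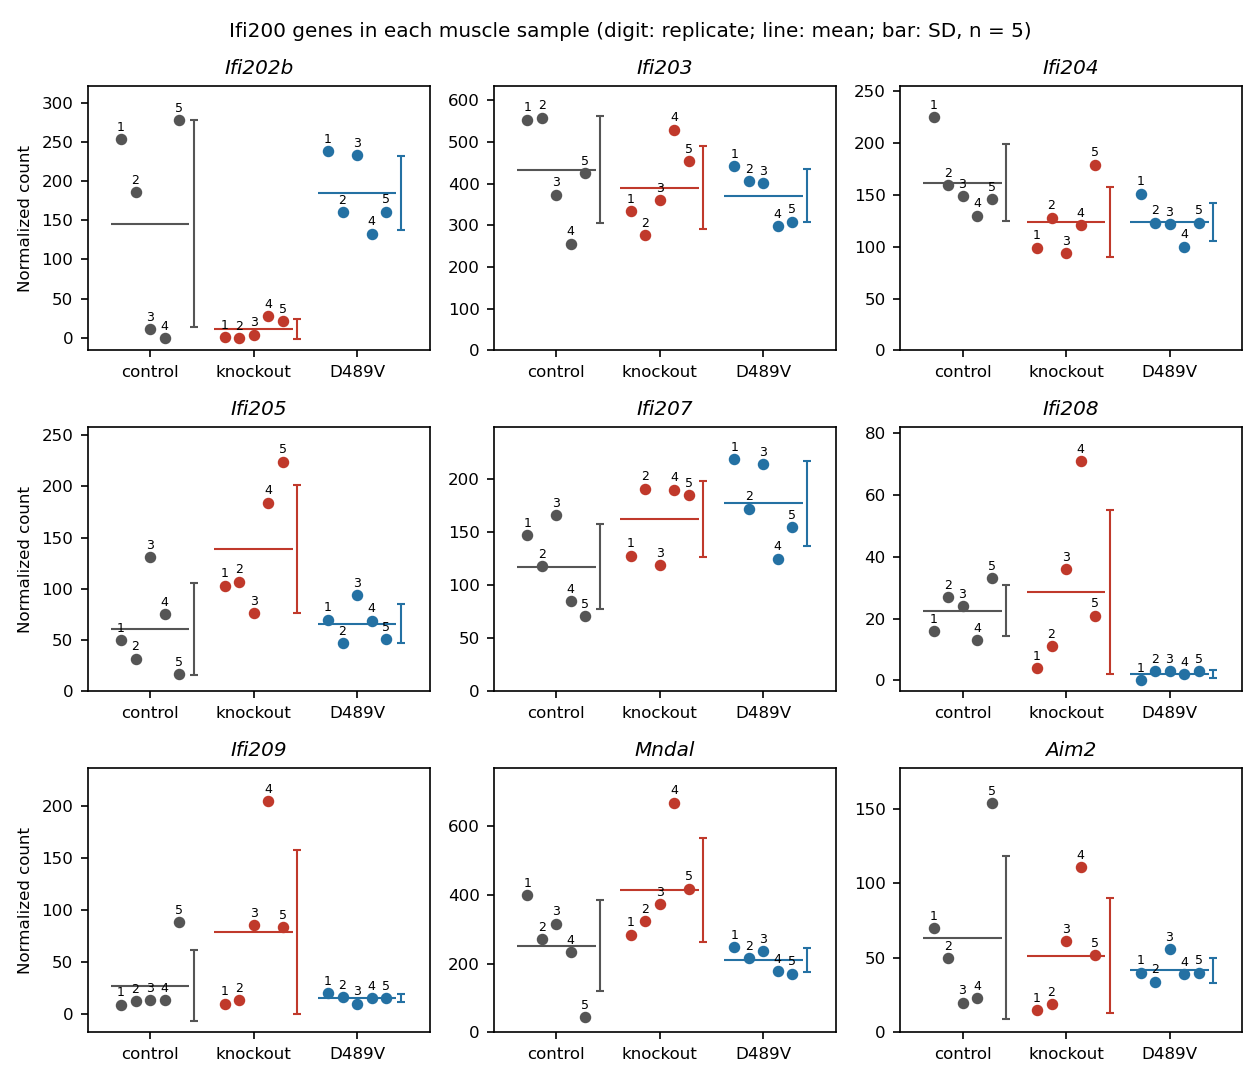
Normalized counts (vertical axes, a linear scale for each gene) of the 9 members in every sample; digits are replicate numbers, lines are group means and bars are 1 SD (n = 5). Ifi202b falls into high and near-zero samples among controls, and Mndal is lowest in control 5, at 44.

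Levels were compared between genes only per kilobase of annotated exons. On that scale the mean over all 15 samples was highest for Mndal, at 80.5 ± 39.1 normalized counts per kilobase (SD, n = 15). This order pools the groups: Mndal was at 114 in knockout, where Ifi202b was at 6.36, while Ifi202b was above it in controls, at 85.8 against 69.7, and in D489V samples, at 109 against 57.9. Over all samples Ifi202b followed at 67.1 ± 63.6, Ifi203 at 59.5 ± 14.5, Ifi207 at 44.5 ± 13.0 and Ifi204 at 38.4 ± 9.52. Ifi205, Aim2 and Ifi209 were lower, at 21.2 ± 13.4, 14.9 ± 10.6 and 11.4 ± 15.3, and Ifi208 was lowest, at 3.39 ± 3.60. The steps from Ifi203 to Ifi207 and from Ifi204 to Ifi205 were larger than the SD of either gene, and the other neighbours in this order did not differ beyond their SD. Ifi203, Ifi204 and Ifi207 varied least, with a coefficient of variation of 24.4%, 24.8% and 29.2% over the 15 samples. It was 94.9% for Ifi202b, 106% for Ifi208 and 134% for Ifi209.

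The steadier members overlapped between all 3 groups. Ifi203 held 554, 559, 374, 256 and 426 in controls, 335, 276, 360, 530 and 454 in knockout and 443, 406, 402, 299 and 309 in D489V samples. Ifi207 held 147, 118, 166, 85 and 71 in controls, 128, 191, 119, 190 and 185 in knockout and 219, 172, 214, 125 and 155 in D489V samples. Ifi211, the gene RefSeq also calls Mnda, held 27 to 75 among controls, 34 to 91 among knockout samples and 42 to 69 among D489V samples.

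Members differed in how they followed Ifi202b across the samples. Over 15 samples, which include all 3 groups, the Spearman correlation with Ifi202b was 0.63 for Ifi203, 0.63 for Aim2 and 0.39 for Ifi204. It was 0.68 for the pseudogene Ifi203-ps. Ifi205, the neighbour on the other side, had a correlation of -0.64 and Mndal one of -0.34. Ifi207, Ifi208 and Ifi209 were at 0.04, -0.13 and 0.03. These correlations are descriptions over samples that share group and library differences, and they show that adjacent genes of the cluster went both ways.

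Lymphoid markers moved with several family genes. The summed B cell markers held 1744 to 6734 normalized counts in control 5 and knockouts 3 to 5, against 29 to 348 in the other 11 samples, and the summed T cell markers held 288 to 1807 against 23 to 89. The lymph node venule gene Glycam1 held 257, 482, 481 and 174 in these 4 samples and at most 33 elsewhere, while the venule genes Madcam1 and Chst4 did not separate them and Ccl21a was listed at 0 in every sample. Of macrophage genes 0 of 12 separated these 4 samples from the other 11. Summed dendritic cell genes did separate them, at 187 to 555 against 33 to 106, although 1 of the 7 genes, Ccr7, did so by itself. Summed skeletal muscle genes were lower in the 4 samples, at 4939867 to 5475065 against 5492084 to 7037289. Of the 7 muscle genes, Tnnt3 was lower by itself, at 635037 to 754906 against 767316 to 1143657. Mb, named because it separated these samples, went the other way, at 49846 to 67947 against 25228 to 46761. The remaining muscle genes overlapped. Ifi209, also known as Pyhin1, held 88 in control 5 and 85, 204 and 83 in knockouts 3 to 5, against 9 to 20 in the other 11 samples. The same samples were separate for Ifi206, at 14 to 46 against 0 to 6, and for Ifi214, at 8 to 68 against 0 to 3. The remaining Ifi200 genes overlapped. With no share over all genes beside them, these separations are given as descriptions only. In whole muscle, fewer cells of a type and less RNA per cell cannot be told apart.

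Aim2, the DNA sensor, was highest in control 5 and knockout 4, at 154 and 111, and held 61 and 52 in knockouts 3 and 5. The other 11 samples ran from 15 to 70, so the ranges overlapped. Among controls without high lymphoid markers Aim2 held 70 and 50 in replicates 1 and 2 and 20 and 23 in replicates 3 and 4, and Ifi202b too was higher in replicates 1 and 2 than in 3 and 4. Ifi202b held 278 in control 5, with B cell markers at 6734, and 28 in knockout 4, with B cell markers at 6484. Its high controls 1 and 2 had B cell markers at 125 and 97. The part of lymphoid cells in the values of Ifi209, Ifi206, Ifi214 and Aim2 was not tested.

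**Figure D3:**
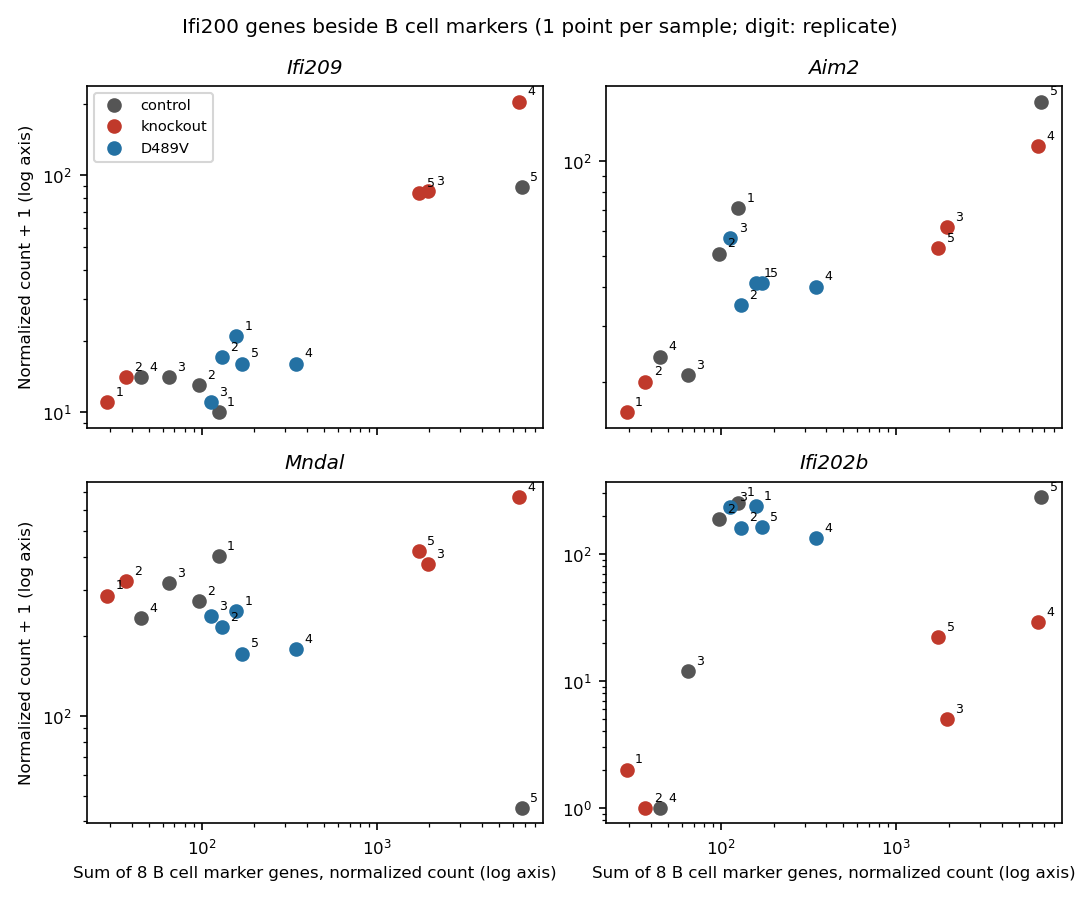
Each point is a sample, with the sum of 8 B cell marker genes (horizontal log axis, normalized counts) and the level of a family gene (vertical log axis, normalized count + 1); colours are groups and digits are replicates. Ifi209 is at 83 to 204 in the 4 samples with 1744 or more B cell marker counts and at 9 to 20 elsewhere, while Ifi202b is both high and low at like B cell levels.

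Knockout against control asked how loss of Pdgfrb in myogenin-expressing cells changed the family. No member passed the threshold in limma, which was an adjusted p under 0.05 over 15234 genes, where 0.00656% of all genes did. Of 8 members tested, 0 passed and 1 had an unadjusted p under 0.05, beside 2296 of the 15234 genes. The groups overlapped for all 8, beside 2.24% of genes tested whose groups did not. That member was Ifi205, whose RNA is known to be induced in macrophages. Its normalized counts were 50, 32, 131, 75 and 17 in controls and 103, 107, 76, 184 and 224 in knockout samples, so the groups overlapped. Its log2 change was 1.38 (standard error 0.49), with a limma adjusted p of 0.305, and without knockout replicate 3 it was 1.56 with an adjusted p of 0.468. Of the other Ifi200 genes, only Ifi213 did not overlap, at 9, 10, 41, 84 and 36 in knockout against 3 to 8 in controls. Ifi213 was too low to be tested in this comparison.

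The remaining changes in knockout against control were smaller or less precise. Mndal held 284, 323, 374, 668 and 418 in knockout samples, all above control 5 but inside or above the range of controls 1 to 4. Its log2 change was 0.95, with a 95% interval from -0.15 to 2.04, and it was 0.40 without control replicate 5. Ifi209 had a log2 change of 1.33 with an interval from -0.51 to 3.17. Without the 4 samples with high lymphoid markers, a setting chosen after seeing the data that leaves 2 knockout samples, it was -0.03. Ifi203, Ifi204, Ifi207, Ifi208 and Aim2 had log2 changes from -0.39 for Ifi204 to 0.51 for Ifi207. The interval of Ifi203 ran from -0.64 to 0.37, and that of Aim2 from -1.64 to 1.13, so a change of 2-fold was within the interval of Aim2 and outside that of Ifi203. The median log2 change of the 8 members was 0.19, beside 0.01 over all genes tested.

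D489V against control asked the same of the activated receptor. Here 0 of 8 members passed limma's threshold, beside 0.0587% of 15339 genes (0.0261% higher in D489V), and 3 of the 8 had an unadjusted p under 0.05, beside 1447 of the 15339 genes. Ifi208 came closest. Its normalized counts were 16, 27, 24, 13 and 33 in controls and 0, 3, 3, 2 and 3 in D489V samples. Every D489V sample lay below every control, a separation seen in 2.16% of all genes tested. The log2 change was -2.97 (standard error 0.47), with a limma adjusted p of 0.0506. Ifi208 met the filter on low values only through the 5 controls, so a gene tested in this way had to differ, and without any one control it was not tested. Over the 12 alternatives that did test it the adjusted p lay between 0.0172 and 0.137 and passed in 5, and this is not read as support. Its counts in D489V are low enough that rounding and counting error weigh on the size of the change, and 11.8% of its windows are shared with other genes.

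The other members of the D489V comparison stayed short of the threshold. Ifi207 had a log2 change of 0.63 with a limma adjusted p of 0.446, and Ifi204 one of -0.37 with 0.509. Ifi204 held 225, 159, 149, 130 and 146 in controls and 151, 123, 122, 100 and 123 in D489V samples, with overlap. Mndal had a log2 change of 0.02, with an interval from -1.03 to 1.08, and of -0.52 without control replicate 5. The interval of Ifi203 ran from -0.64 to 0.27. The median over the 8 members, Ifi208 included, was -0.20, beside 0.00 over all genes tested.

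**Figure D4:**
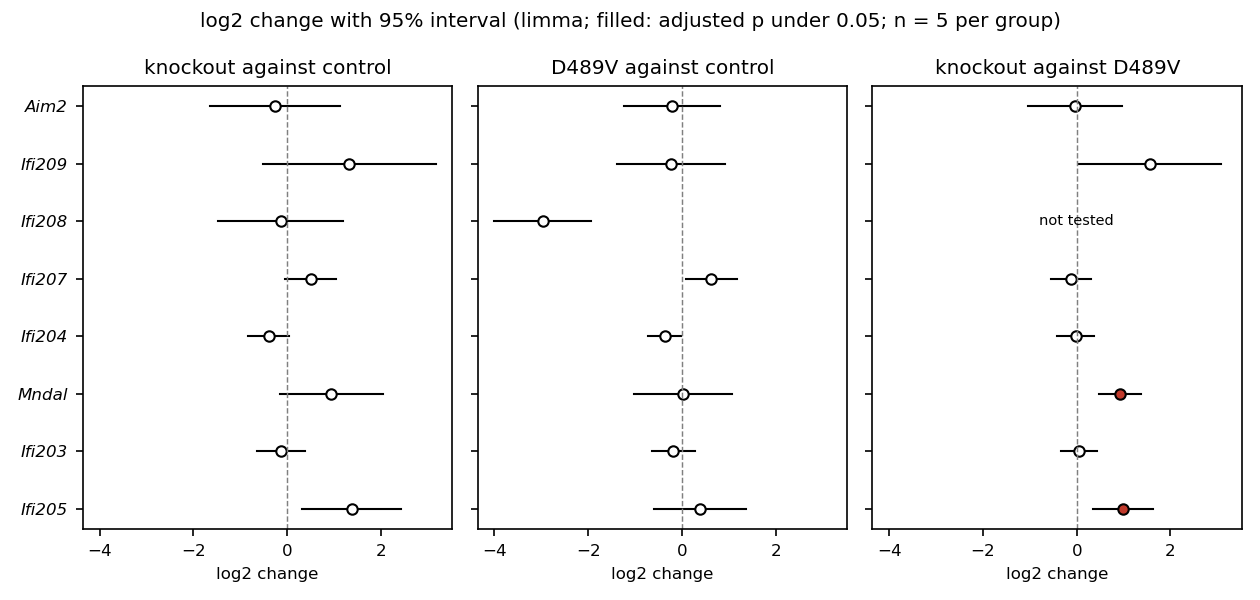
Points are log2 changes on the log2(normalized count + 1) scale and lines are 95% intervals from limma for 8 members in the 3 comparisons (n = 5 per group); filled points have an adjusted p under 0.05. Mndal and Ifi205 are filled in knockout against D489V, and Ifi208 lies at -2.97 in D489V against control.

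Knockout against D489V compared the mutant groups directly. In this comparison 20.8% of 15299 genes passed limma's threshold, and 2 of 7 members tested did, Mndal and Ifi205, both higher in knockout, as were 10.5% of all genes. Groups did not overlap for 13.9% of genes tested. The count of 2 among 7 is too small to set apart from that background, and Ifi208 was too low in these samples to be tested. Markers of other cells differed as well: summed endothelial genes stood at 8196 to 12808 across knockout samples, against 14829 to 17177 across the D489V group, with no overlap, and 6 of 6 of these genes passed as lower in knockout. Of 6 adipocyte genes 4 passed as lower in knockout, namely Adipoq, Cidec, Plin1 and Cfd with log2 differences from -1.83 to -2.31, and the list's median was -1.86. The summed counts of all 6 genes were 35056 to 104463 across knockout samples and 98183 to 125685 across the D489V group. Car3, which did not pass, made up the largest part of this sum and held 98726 in knockout replicate 3. By themselves, Adipoq, Cidec and Cfd were lower in every knockout sample than in every D489V sample, while Plin1 overlapped. The part of these cells in the member results was not tested. Mndal held 284, 323, 374, 668 and 418 in knockout against 248, 216, 237, 178 and 171 in D489V samples, with no overlap. Its log2 difference was 0.92 (standard error 0.21), with a limma adjusted p of 0.0132. It was 0.94 with an adjusted p of 0.0234 without knockout replicate 3, and 0.54 with 0.106 without knockouts 3 to 5, which leaves 2 knockout samples.

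Ifi205 held 103, 107, 76, 184 and 224 in knockout against 70, 47, 94, 69 and 51 in D489V samples. The ranges overlapped between 76 and 94. Its log2 difference was 0.99 (standard error 0.29), with a limma adjusted p of 0.0347, and 1.17 with 0.0211 without knockout replicate 3. With the replicate number as a block the adjusted p was 0.0683, and with B and T cell markers as a covariate, added after seeing the data, it was 0.0913. It also missed the threshold without any one of knockouts 4 or 5 or D489V 1, 2 or 5, where it lay between 0.0603 and 0.0864. Controls 3 and 4, low in Ifi202b, held 131 and 75 of Ifi205, and controls 1, 2 and 5, high in Ifi202b, held 50, 32 and 17. The controls with high Ifi202b thus held less Ifi205 than those with low Ifi202b, although within each of these sets the control with more Ifi202b did not always hold less Ifi205.

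Ifi202b had a mean of 7.50 in D489V and of 2.53 in knockout on the log2(normalized count + 1) scale, a difference of -4.97 for knockout against D489V, given without a test because its values chose it. Ifi209 had one of 1.57 with a limma adjusted p of 0.121, and without knockout replicate 1 it passed, at 2.09 with 0.0399. Without knockouts 3 to 5 it was -0.35. Aim2 had a log2 difference of -0.04, with an interval from -1.03 to 0.96. Without knockouts 3 to 5 it was -1.24 with an adjusted p of 0.0436, since knockouts 1 and 2 held 15 and 19 against 34 to 56 in D489V samples. Ifi208 was not tested but held 4, 11, 36, 71 and 21 in knockout, all above the D489V samples at 0 to 3. Of the other family genes, Ifi213 passed in this comparison, with a log2 difference of 2.46 and a limma adjusted p of 0.0234. It held 9, 10, 41, 84 and 36 in knockout and 12, 3, 1, 3 and 6 in D489V samples, and its 3 highest values were in knockouts 3 to 5, whose lymphoid markers were high. Ifi213 met the filter on low values only through knockouts 2 to 5 and D489V replicate 1, so mostly through its higher group. Its pass is therefore not read as support. It missed the threshold without D489V replicate 2 or 3, with 0.0565 and 0.0509. Ifi213 was too low to be tested without any of knockouts 2 to 5 or D489V replicate 1.

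The wider interferon pathway was read from lists of known genes. Of 32 interferon-stimulated genes tested, 0 passed in either comparison with controls, and 5 of the 32 had a log2 change above 0 in each. Their median log2 change was -0.53 in knockout and -0.16 in D489V. Directly, 5 of 32 passed between knockout and D489V: Oasl2, Oas2, Rtp4 and Parp14 were lower in knockout, and Iigp1, an immunity-related GTPase, was 1.45 higher on the log2 scale (limma adjusted p 0.0323). Of 16 interferon receptor and signal genes, 5 passed. The kinases Jak1 and Jak2 and the receptor chain Ifngr2 had log2 differences of 0.59, 0.57 and 0.44, while Irf1 and Socs1 had log2 differences of -0.51 and -1.17. Of 11 DNA sensing and inflammasome genes tested, 1 passed, Irf3, with a log2 difference of -0.48 (limma adjusted p 0.0276). Of the 4 most abundant genes in each list, Tbk1, Gsdmd, Tmem173, Ifngr1, Ifi35, Gbp7 and Bst2 did not pass in any comparison, and Irf3, Jak1, Jak2, Ifngr2 and Iigp1 are given above. Oasl2, Oas2, Rtp4, Parp14, Irf1 and Socs1 are named because they passed, and were chosen after their values were seen. These shares, 5 of 32, 5 of 16 and 1 of 11, stand beside 20.8% over all genes.

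Interferon-stimulated genes also varied among wild-type samples. Their summed normalized counts were 10728, 9063 and 8980 in controls 1, 2 and 5, where Ifi202b was high, and 5956 and 5876 in controls 3 and 4. Knockout samples, all low in Ifi202b, ran from 5366 to 8068, and D489V samples, all high in Ifi202b, ran from 5844 to 8329. Knockout and D489V sums thus overlapped, although 6 of the 32 genes had a log2 difference above 0 and the median was -0.27. Iigp1 alone held 2220, 574, 693, 2063 and 2628 in knockout and 363 to 928 in D489V samples. Over the 15 samples, which share group and library differences, the Spearman correlation of Ifi202b was 0.63 with the sum of the interferon-stimulated genes and 0.90 with that of the DNA sensing genes. Irf3 and Tbk1, with means of 1041 and 580, made up the largest part of the DNA sensing sum. Pycard and Casp1, named above with Aim2, had means of 43.1 and 40.1 and weighed little in it.

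Genes whose pattern was most like that of Ifi202b were sought among 12152 genes with a mean of 50 or more, by the Spearman correlation over 15 samples. Hmces, which encodes a protein that binds abasic sites in DNA, was the most similar at 0.96, followed by Oas1b at 0.95, Gm14085 and Irf7 at 0.92 each and Nfkbiz at 0.92. Oas1b belongs to the family of oligoadenylate synthetases and is annotated in GENCODE as a polymorphic pseudogene, on chromosome 5 (120812635 to 120824163). Controls 1 to 5 held 93, 74, 32, 13 and 82 normalized counts of it, the knockout samples 31 to 42 and the D489V samples 44 to 75. Gm14085, on chromosome 2 (122484941 to 122528040), held 181, 120, 41, 2 and 88 in controls 1 to 5. It held 3, 1, 26, 59 and 11 in knockout samples, which overlapped the D489V samples at 42 to 130. Irf7, a transcription factor of the interferon response, stood at 504, 387, 195, 118 and 365 in controls, at 125 to 233 in the knockout group and at 166 to 331 in the D489V group. The most opposite genes were Vps36, Nacc2, Sec61a2, Prss23 and Trim55, with correlations from -0.95 to -0.92.

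Genes near Ifi202b were compared with it in the same way. A correlation of 0.8 or more in size was found for 6.11% of the 12152 genes. Of 62 genes within 5 Mb of the cluster but outside it, 2 reached this size, or 3.23%. These were Uap1 at -0.91 and Desi2 at -0.81, both opposite to Ifi202b rather than like it. By Pearson correlation the shares were 2.76% of all genes and 3.23% of the neighbours, so the order of the shares turned, and their difference was not tested. The neighbours past 0.8 by that measure were Uap1 at -0.89 and Sdhc at -0.82, while Desi2 was at -0.71. Uap1 held 1045, 1167, 1514, 1687 and 1162 in controls, a much smaller relative range than that of Ifi202b. The median size of the correlation was 0.44 in the 62 genes and 0.46 in all genes.

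**Figure D5:**
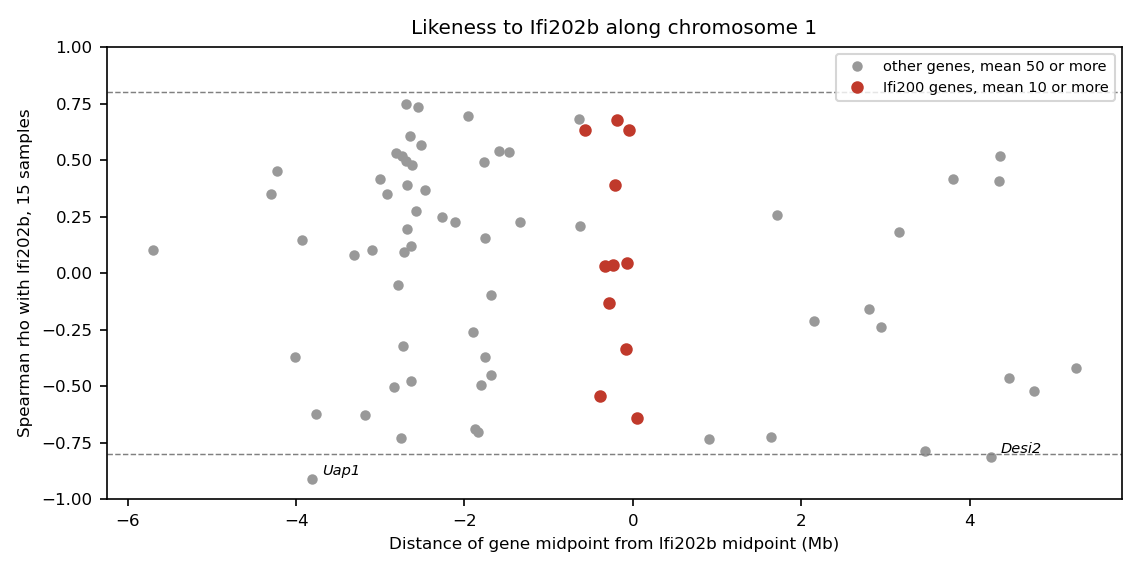
Each point is a gene of the cluster or within 5 Mb of it, with the distance of its midpoint from that of Ifi202b (horizontal axis, Mb) and its Spearman correlation with Ifi202b over 15 samples (vertical axis); red points are Ifi200 genes and dashed lines mark 0.8 in size. The Ifi200 genes shown range from -0.64 to 0.68, and Uap1 and Desi2 are the points past a line.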

How the data were processed

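Poly(A) RNA of skeletal muscle was sequenced with a directional kit, per the labels' protocols. Each deposited value is treated as a score, since the names of the tables call the values normalized counts and all are whole numbers; how the authors normalized them is not given in the sources used here. The submitters' processing notes list Trim Galore 0.6.0, cutadapt, FastQC, STAR 2.7.0e, DESeq2 1.26.0 and GRCm38, with no role or order; the annotation and counting tool are not given in the sources used here. The 2 tables were joined by gene identifier, and the 5 control columns were identical in both. All 55536 identifiers matched GENCODE M21, and sample correlations (Spearman) lay between 0.948 and 0.993. In 8 of 15 samples no whole number from 1 to 60 was missing among the values, so whole reads could not be recovered and edgeR and DESeq2 alternatives were not run; the depth in reads is not known here.

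Groups were taken from the genotype labels. Pairs of groups were fitted with limma 3.58.1 in R 4.3.3 (eBayes with trend, two-sided, Benjamini-Hochberg over all genes tested) on log2(value + 1), for genes reaching 10 in 5 or more of 10 samples, so fold changes of low genes are understated. The script was tested on simulated data. Changes of 8 members were tested, and Ifi202b, the on-off values and correlations are descriptions. The text names all members, other Ifi200 genes reaching 10, the 5 genes most like and most unlike Ifi202b, chromosome 1 neighbours with a correlation of 0.8 or more in size within 5 Mb, and the 4 genes of highest mean in each other list; list genes outside this rule are marked in the text. Alternatives changed the pseudocount, filter, scaling, variance model and replicate block, and left out samples. Members and lists were chosen with earlier results of these data known. Tables and figures were made with pandas 2.3.3 and matplotlib 3.10.9 under Python 3.11.15.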

Additional observations from a re-analysis of the deposited data

Results flagged for a closer look

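In each group of 5 samples the gap between the highest or lowest sample and its nearest neighbour was divided by the group's range, on the log2 scale, and a share above 0.71 (Dixon's 95% critical value) marked a sample as standing apart. This happened in 2 of 38 groups of Ifi200 values, and chance alone gives about 1 in 20, or 1.9. Both were in control replicate 5. Ifi209 held 88 normalized counts there against 9 to 13 in the other controls (gap 0.846 of the range). Mndal held 44 against 233 to 400 (gap 0.754).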

How the results depend on the processing

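In knockout against control 0 members passed under every alternative run, beside 1 to 7 of all genes tested. In D489V against control the count was 1, Ifi208, with pseudocount 5, quantile normalization, upper-quartile rescaling and robust eBayes, and 0 to 1 over the fits without one replicate, the 1 without D489V replicate 3. More genes passed over all genes in these settings too, at 19, 16, 29, 21 and 26 in this order, against 9 in the main fit. In knockout against D489V it was 1 with upper-quartile rescaling, with the replicate block and, as settings added after seeing the data, with B and T cell markers as a covariate and without knockout replicates 3 to 5 together; it was 1 to 3 without one replicate, the 3 without knockout replicate 1, where Ifi209 passed too. With no filter on low values it was 3, with Ifi208 added. Mndal was the gene left wherever the count was 1, except without knockouts 3 to 5, where it was Aim2. The count over all genes moved as well, from 3181 of 15299 in the main fit. It was 2534 of 15189 with upper-quartile rescaling, 2208 of 15299 with the block and 1843 of 15299 with the covariate. Without knockouts 3 to 5 it was 565 of 15146, and with no filter 2329 of 31633. Without one replicate it ran from 1398 to 3686. The member counts are not read apart from that background. On-off members in controls were 5 with a limit of 20% (5.24% of all genes), where all but Ifi202b rested on control replicate 5. On-off members in knockout samples were 1 with a highest value of 100 or more (2.18% of all genes) and 0 to 2 without one replicate. By Pearson correlation 335 genes in place of 742 were at 0.8 or more in size with Ifi202b. For all of these the cause was not tested. Of 551 log2 values of single genes 530 kept their side of the threshold, 13 lost it, 8 gained it and 0 changed sign after passing. With the replicate number as a block Ifi213 had an adjusted p of 0.0503 in knockout against D489V and Mndal one of 0.036; same-numbered samples deviated with correlations from -0.4 to 0.386, and the numbers were not taken as pairs. Count models (edgeR and DESeq2), planned as alternatives, were left out because whole reads could not be recovered. Low counts of Ifi206, Ifi208 and Ifi214 limit what their values can show.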
